A study of Rattus norvegicus with 9 samples.

Results

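Heat shock proteins and co-chaperones of the cytosol were followed in rat brain: Hspa8, Hsp90aa1, Hsp90ab1, Hspb1, Hsph1, Dnajb1, Dnaja1, Bag3, Cryab and Dnajc12. These 10 genes were chosen by name. Of them 9 had at least 1 row that the platform annotation ties to that gene symbol alone, out of 22093 genes with such a row, and where a gene had several rows the brightest was used. Dnaja1 shares its row with a microRNA gene and was not measured here. All 9 measured genes passed the filter on low signal and are among the 15522 genes tested.

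Clariom D rat arrays, 9 in all, were hybridised with RNA of male rats, 3 for each of 3 groups. The groups were bilateral hippocampus after transcranial focal stimulation (TFS), bilateral hippocampus of sham rats, and bilateral parietotemporal cortex of sham rats. TFS passes a current through the scalp. The current had 300 Hz and 50 mA and lasted 5 min, the tissue dates from 4 h after it, and sham rats were handled alike without current. Strain, age, the number of animals per array and the numbering of the animals are not given in the labels, so p-values measure only the spread between these samples, which may be technical.

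The median log2 signal of an array was 4.95 to 5.04. Of 9 tested marker genes of hippocampus 6 passed the test as higher in hippocampus than in cortex, among them Prox1 at 1.89, and of 13 cortical markers 6 passed as lower, among them Lamp5 at -1.49, while Bcl11b, which is also a gene of hippocampal neurons, was higher at 1.002 (limma log2 differences, sham rats). Of the negative control probe sets 95% lay under 7.57, and a gene signal under that limit is called within the background range. Levels of different genes come from different probes and are not ranked against each other.

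Chaperones keep other proteins from misfolding and aggregating. HSP70 proteins such as Hspa8 bind unfolded stretches in a cycle driven by ATP: J-domain proteins (Dnajb1, Dnaja1) deliver the client and start ATP hydrolysis, and exchange factors (Hsph1, Bag3) release it. HSP90 (Hsp90aa1, Hsp90ab1) takes over clients such as kinases and steroid receptors, and small heat shock proteins (Hspb1, Cryab) hold unfolded proteins without ATP. Heat shock factor 1 switches many of these genes on under stress by binding heat shock elements, in which GAA units alternate with their reverse complement. Neurons make much Hspa8 and HSP90 without stress, and Cryab in brain is known from oligodendrocytes and astrocytes.

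Promoters are shown to let the members with and without heat shock element letters be told apart beside their values. RefSeq promoters of build GRCr8, from 250 bases before to 50 bases after the annotated start, were matched by symbol for 7 of the 10 genes; Hsp90aa1, Cryab and Dnajc12 were not matched. The letters searched were GAANNTTC and TTCNNGAA, each its own reverse complement, and the 3-unit element, in which one of each overlaps the other, on both strands. Hspa8 and Hsph1 carry the 3-unit element, Bag3 a single pair of units and Hsp90ab1 none, and these 4 are printed with the matched unit pairs in capitals.
Hspa8, chr8:50080264-50080563, + strand: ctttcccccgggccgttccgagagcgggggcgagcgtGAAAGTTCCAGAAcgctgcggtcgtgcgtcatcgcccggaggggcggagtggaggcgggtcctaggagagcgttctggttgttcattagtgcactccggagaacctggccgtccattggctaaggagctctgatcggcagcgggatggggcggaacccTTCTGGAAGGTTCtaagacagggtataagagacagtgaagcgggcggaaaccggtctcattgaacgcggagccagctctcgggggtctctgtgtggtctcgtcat
Hsph1, chr12:10427118-10427417, + strand: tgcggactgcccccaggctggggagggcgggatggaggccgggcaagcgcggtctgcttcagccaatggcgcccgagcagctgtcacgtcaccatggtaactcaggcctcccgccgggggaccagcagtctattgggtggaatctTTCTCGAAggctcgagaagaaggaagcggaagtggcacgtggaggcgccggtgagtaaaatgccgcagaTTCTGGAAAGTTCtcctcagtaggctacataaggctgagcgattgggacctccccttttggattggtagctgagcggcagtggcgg
Bag3, chr1:192533210-192533509, + strand: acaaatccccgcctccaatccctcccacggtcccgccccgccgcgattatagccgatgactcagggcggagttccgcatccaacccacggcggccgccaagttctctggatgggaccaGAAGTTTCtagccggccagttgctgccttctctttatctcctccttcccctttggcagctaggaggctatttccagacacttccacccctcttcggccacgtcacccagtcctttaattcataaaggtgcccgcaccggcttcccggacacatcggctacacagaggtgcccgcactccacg
Hsp90ab1, chr9:22930173-22930472, + strand: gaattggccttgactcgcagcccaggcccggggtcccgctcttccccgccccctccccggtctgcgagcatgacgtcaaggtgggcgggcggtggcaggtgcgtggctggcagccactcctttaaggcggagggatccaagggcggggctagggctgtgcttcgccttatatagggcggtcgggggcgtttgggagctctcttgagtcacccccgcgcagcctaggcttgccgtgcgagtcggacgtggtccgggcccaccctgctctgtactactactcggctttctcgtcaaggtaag

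In the Hspa8 promoter one 3-unit element began 213 bases and another 55 bases before the start, and in the Hsph1 promoter one began 36 bases before it. The Dnaja1 promoter held a 3-unit element that began at base 10 after the start. The Hspb1 promoter held pairs of units that began 129 and 109 bases before the start, and Dnajb1 had one 11 bases before and one at base 18 after it. At least 1 unit pair was found in 6 of the 7 promoters, against 15.9% of all 33469 promoters of the table, and the 3-unit element in 3 of the 7, against 0.798% of all. A match of letters describes the window and does not show that a factor binds there.

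**Figure D1:**
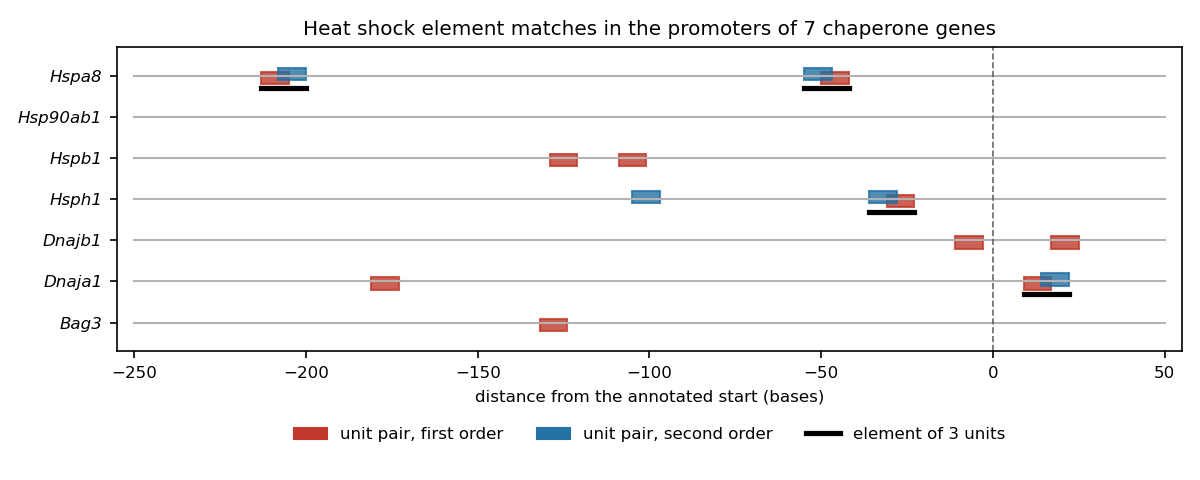
Matches to heat shock element letters in the promoters of 7 chaperone genes, by distance from the annotated start in bases (horizontal axis), one gene per line. Coloured boxes are pairs of units in either order and black bars 3-unit elements: Hspa8 has 2 of these, Hsph1 and Dnaja1 have 1 each, and Hsp90ab1 has no match.

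The first comparison asks whether chaperone genes differed in hippocampus 4 h after TFS. No member passed the test: limma called 0 of 9 members at an adjusted p under 0.05, as it called 0% of the 15522 genes. Every member's mean was slightly higher after TFS, by 0.05 (Dnajb1) to 0.14 (Hsph1) log2 units, with a median of 0.09, against a median of 0.011 over all tested genes. At an unadjusted p under 0.05 there was 1 member, Dnajc12, which was higher, and 5.19% of all genes, 4.37% higher and 0.812% lower. All 9 members also lay above 0 after median centring and after quantile normalization of the tested genes, which gave medians of 0.075 and 0.056. Median centring shifts every gene's difference by one amount. It took the smallest, Dnajb1, from 0.051 to 0.036, so it could not change a sign here. The share of all genes above 0 after either scaling was not counted.

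Bright genes in general lay higher on the TFS arrays. Of all tested genes 61.3% had a difference above 0, and of the 4466 tested genes above the background range 81.8% did, with a median of 0.039. In the brightest 10% of genes the share was 85.9% and the median 0.054. The 5 members above the background range (Hspa8, Hsp90aa1, Hsp90ab1, Hsph1 and Dnajb1) had a median of 0.090 and the 4 within it one of 0.084. The shares of bright genes do not cover these 4, and no share was counted for genes within the background range alone.

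**Figure D2:**
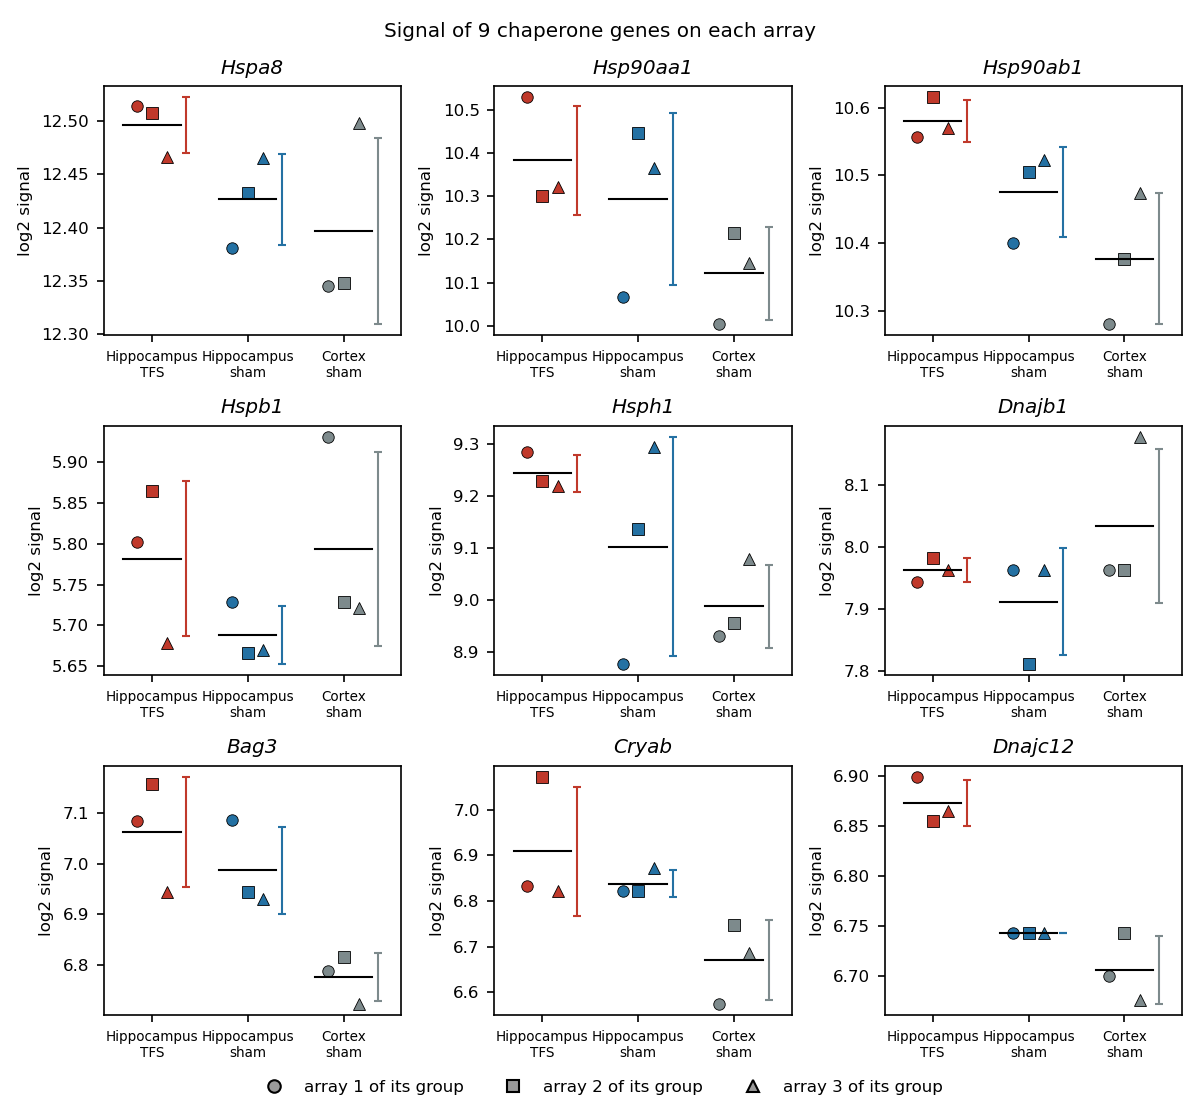
Log2 signal (vertical axis, a scale of its own for each gene) of 9 chaperone genes in hippocampus after TFS, hippocampus of sham rats and cortex of sham rats. Each symbol is 1 array, its shape gives the array's number within its group, black lines are group means and bars the SD (n = 3). The TFS arrays lie above every hippocampal sham array for Hspa8, Hsp90ab1 and Dnajc12.

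Hspa8 encodes the constitutive HSP70 of the cytosol. It measured 12.51, 12.51 and 12.47 in TFS hippocampus, 12.38, 12.43 and 12.47 in sham hippocampus, and 12.34, 12.35 and 12.50 in sham cortex. The TFS arrays lay above the hippocampal sham arrays, but only just: the lowest TFS value was 12.4666 and the highest sham value 12.4656. The difference was 0.07 (SE 0.045, adjusted p = 0.923, limma), that is 1.05-fold, with a 95% confidence interval of 0.977 to 1.13-fold. Cortical array 3 lay among the hippocampal values.

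A second row carries the symbol Hspa8 and gave another picture. It had 6.66, 6.76 and 6.63 in TFS hippocampus, 6.66, 6.78 and 6.65 in sham hippocampus, and 6.68, 6.57 and 6.70 in sham cortex. These values lie within the background range and overlap between all groups, with a TFS difference of -0.011. The number in the identifier of this row is 5, whereas RefSeq places Hspa8 on chromosome 8; for 98.7% of 21791 rows the number and the RefSeq chromosome are the same. The bright row is listed as unmapped by its identifier. RefSeq lists 33 pseudogenes named after Hspa8, 9 of which have a row of their own here at 7.66 to 11.77. How far pseudogenes add to the bright signal was not tested.

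Hsp90aa1 encodes the inducible and Hsp90ab1 the constitutive cytosolic HSP90. Hsp90ab1 measured 10.56, 10.62 and 10.57 in TFS hippocampus, 10.40, 10.50 and 10.52 in sham hippocampus, and 10.28, 10.38 and 10.47 in sham cortex. All TFS arrays lay above all hippocampal sham arrays, and the difference was 0.10 (SE 0.053, adjusted p = 0.923, limma). Hsp90aa1 measured 10.53, 10.30 and 10.32 in TFS hippocampus, 10.07, 10.45 and 10.37 in sham hippocampus, and 10.005, 10.22 and 10.15 in sham cortex. Its TFS and sham arrays overlapped, with sham array 1 well under the rest, and the difference of 0.09 (SE 0.11, adjusted p = 0.942, limma) was -0.023 without that array. A second row of Hsp90aa1, at a mean of 9.86, differed by 0.06.

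The exchange factors of HSP70 showed no call. Hsph1, of the HSP110 family, measured 9.28, 9.23 and 9.22 in TFS hippocampus, 8.88, 9.14 and 9.29 in sham hippocampus, and 8.93, 8.96 and 9.08 in sham cortex. The TFS values lie close together, and the wider sham values enclose them. The difference of 0.14 (SE 0.097, adjusted p = 0.923, limma) was the largest of the 9 members and was 0.028 without sham array 1. Its 95% confidence interval ran from 0.942 to 1.29-fold, the highest upper end among the members.

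Bag3, an exchange factor that also sends HSP70 clients to autophagy, measured 7.08, 7.16 and 6.94 in TFS hippocampus, 7.09, 6.94 and 6.93 in sham hippocampus, and 6.79, 6.82 and 6.72 in sham cortex. The hippocampal groups overlap, and all 6 hippocampal arrays lie above all 3 cortical ones. The TFS difference was 0.076 (SE 0.063, adjusted p = 0.923, limma). It was 0.028 without TFS array 2 and 0.134 without TFS array 3, and neither value passed the test.

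Among J-domain proteins, Dnajb1, the stress-inducible HSP40, measured 7.94, 7.98 and 7.96 in TFS hippocampus, 7.96, 7.81 and 7.96 in sham hippocampus, and 7.96, 7.96 and 8.18 in sham cortex. Exactly the same value stands on 5 of the 9 arrays, and the groups overlap. The TFS difference was 0.051 (SE 0.066, adjusted p = 0.946, limma) and was 0.00076 without sham array 2, the low one.

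Dnajc12 encodes a J-domain protein known as a partner of the aromatic amino acid hydroxylases, the enzymes at the head of dopamine and serotonin synthesis. It measured 6.90, 6.86 and 6.86 in TFS hippocampus, 6.74 on each of the 3 sham hippocampal arrays, and 6.70, 6.74 and 6.68 in sham cortex. The TFS arrays lie above all 6 sham arrays. The difference was 0.13 (SE 0.022), or 1.09-fold with a 95% confidence interval of 1.06 to 1.13-fold, with an unadjusted p = 0.00042 and an adjusted p = 0.567 (limma). The gene was already known from an earlier look at these data as one of those with the smallest p, so this p is not independent evidence.

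The 3 hippocampal sham values of Dnajc12 and that of cortical array 2 are identical, and the SD of sham hippocampus is 0. A value shared by at least 4 arrays was found in 38.2% of tested genes. The signal also lies within the background range on every array. Over 23 settings, the one reported included, the difference ran from 0.11 to 0.14 and the adjusted p from 0.163 to 1. Of 7 tested genes of monoamine neurons 0 passed the test and 1, Gch1, had an unadjusted p under 0.05, with a difference of -0.12. All of these genes but Maoa lie within the background range, with means from 5.19 (Tph2) to 5.96 (Th). Their values therefore cannot show whether such transcripts changed. Maoa, which breaks monoamines down, differed by 0.20 (adjusted p = 0.923, limma), and Th, the hydroxylase of dopamine synthesis, averaged 5.83 in TFS and 5.84 in sham hippocampus.

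The small heat shock proteins showed no call either. Hspb1 measured 5.80, 5.87 and 5.68 in TFS hippocampus, 5.73, 5.67 and 5.67 in sham hippocampus, and 5.93, 5.73 and 5.72 in sham cortex. Cryab measured 6.83, 7.07 and 6.82 in TFS hippocampus, 6.82, 6.82 and 6.87 in sham hippocampus, and 6.57, 6.75 and 6.69 in sham cortex. Both genes lay within the background range and their hippocampal groups overlapped. The difference of Hspb1 was 0.09 (SE 0.067) and that of Cryab 0.07 (SE 0.072), with adjusted p = 0.923 and adjusted p = 0.931 (limma). Cryab rests on TFS array 2, without which its difference was -0.011.

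**Figure D3:**
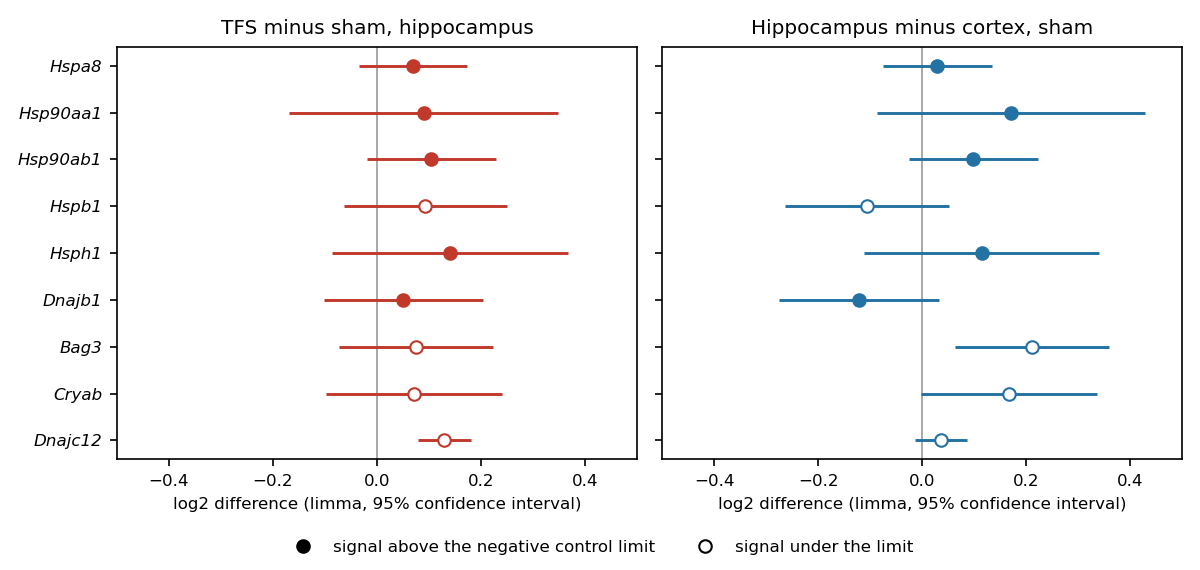
Log2 differences of 9 chaperone genes (points) with 95% confidence intervals from limma (lines), for TFS minus sham hippocampus at left and hippocampus minus cortex of sham rats at right. Open points mark genes within the background range. All 9 points lie above 0 at left, from 0.05 to 0.14, and the interval leaves out 0 for Dnajc12 at left and Bag3 at right before adjustment for the number of genes.

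Read over arrays, the TFS values did not overlap the hippocampal sham values for 3 of the 9 members, all of them higher. Of the 5 members above the background range 2 lay above in this way. So did 8.57% of all genes tested, 19.3% of those above the background range and 28.0% of the brightest 10%. Arrays did not overlap in 9.77% of all genes tested, and 1.2% of all genes tested lay below. The upper ends of the members' 95% intervals ran from 1.13 to 1.29-fold, unadjusted for the number of genes. Tissue was taken at 4 h only. Neuron markers lay between 10.39 and 10.41 on the TFS arrays and between 10.31 and 10.38 on the hippocampal sham arrays, as the mean log2 signal of 13 genes of which 11 had a difference above 0 and 0 passed. Their part in the small differences of the members was not tested, and in bulk tissue fewer cells of a type and less RNA per cell cannot be told apart.

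The wider chaperone network gave the same count. In the 10 other lists, 111 of 122 genes had a row and 106 were tested. For TFS 0 passed and 7 had an unadjusted p under 0.05 (limma), as did 5.19% of all genes tested. Their median difference was 0.035, with 91 of 106, or 85.8%, above 0. Above 0 were also 61.3% of all genes tested, 81.8% of those above the background range and 85.9% of the brightest 10%. The medians of the latter groups were 0.039 and 0.054. The stress-inducible HSP70 gene Hspa1a was 5.82 in TFS and 5.72 in sham hippocampus, within the background range (0.10, SE 0.091, adjusted p = 0.923). Its relative Hspa12a was 9.32 in TFS and 9.21 in sham hippocampus, with arrays apart (0.11, SE 0.029, adjusted p = 0.770, limma). Among HSP90 co-chaperones Stip1, which bridges HSP70 and HSP90, differed by 0.13 and Ttc4 by 0.047, with adjusted p = 0.921 and adjusted p = 0.923.

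Other small heat shock protein genes with the smallest p for TFS were Hspb6 at 0.16 and Hspb8, the partner of Bag3, at 0.071. Of J-domain genes these were Dnajc6, which uncoats clathrin vesicles in neurons, at 0.084 and Dnajc7 at 0.094, and of HSP70 regulators Bag4 at 0.070 and St13 at 0.11. Hsf2 and Hsbp1 of the heat shock factor list differed by 0.034 and 0.021, Tcp1 and Cct5 of the cytosolic chaperonin by 0.12 and 0.095, and Clpp and Grpel2 of mitochondria by 0.13 and 0.084. Endoplasmic reticulum chaperones had the highest median of the 10 lists, 0.067 over 14 genes, with Hspa5 at 0.19 and Pdia6 at 0.16. Among other heat-inducible genes the autophagy receptor Sqstm1 differed by 0.082 and Gadd45g by 0.071. None of the genes of this paragraph passed (adjusted p at least 0.772, limma).

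**Figure D4:**
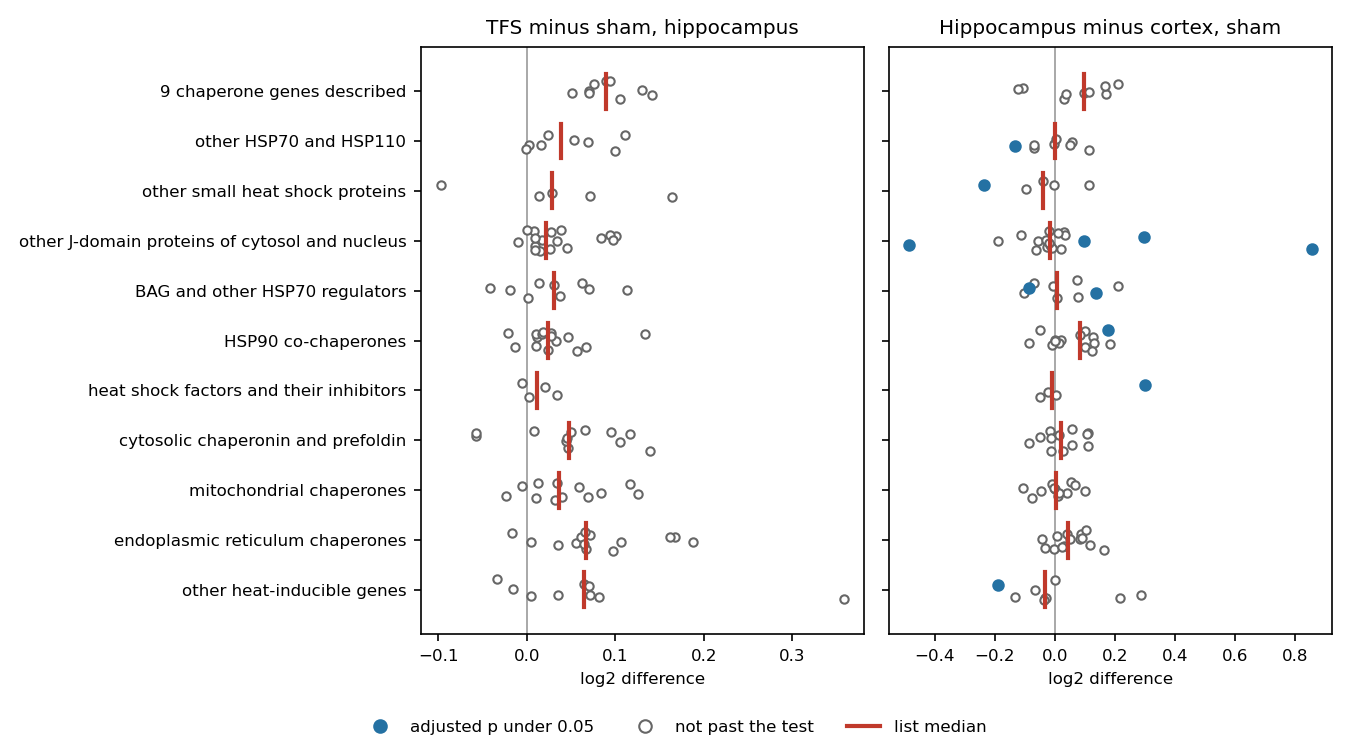
Log2 differences of single genes (points) of the 9 members and of 10 other chaperone and heat-inducible lists, with list medians as red bars, for TFS minus sham hippocampus at left and hippocampus minus cortex of sham rats at right; the horizontal scales differ. Filled points passed limma at an adjusted p under 0.05: none at left, and 11 genes outside the 9 members at right.

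The second comparison asks how chaperone genes differ between hippocampus and cortex of sham rats. No member passed here either (limma, 0 of 9), while 12.4% of all tested genes did, 1931 in number, 5.99% higher and 6.46% lower; with the array number as a block over the 6 sham arrays 982 genes and again 0 members passed. At an unadjusted p under 0.05 there was 1 member, Bag3, against 25.6% of all genes, 12.4% higher and 13.3% lower. With the block over the 6 sham arrays 4 of 9 members had such a p (limma). The share of all genes at that p was not counted with the block. The median difference was 0.099, with 7 of 9 members higher in hippocampus, against a median of -0.0044 and 46.6% of all genes above 0. The members above 0 were 7 of 9 in all 3 scalings, that is as deposited, median centred and quantile normalized. Median centring shifts every gene's difference by one amount, and the share of all genes above 0 was not counted after the added scalings.

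Bag3 came closest to a call. It averaged 6.99 ± 0.086 in sham hippocampus and 6.78 ± 0.048 in sham cortex (SD, n = 3), a difference of 0.21 (SE 0.063, adjusted p = 0.0753, limma), or 1.16-fold with an interval of 1.04 to 1.28-fold. The 3 hippocampal arrays lay above the 3 cortical ones, as in Cryab; of all genes tested 24.1% did not overlap, and 11.4% of all lay above and 12.7% below. With the array number as a block the adjusted p was 0.0894 over the 6 sham arrays and 0.0456 over all 9, and it was 0.0448 without TFS array 3, which belongs to neither group. Over 23 settings the difference ran from 0.16 to 0.24 and the adjusted p from 0.0448 to 0.268. The signal lies within the background range.

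Cryab averaged 6.84 ± 0.029 in sham hippocampus and 6.67 ± 0.088 in sham cortex (SD, n = 3), a difference of 0.17 (SE 0.072, adjusted p = 0.198, limma). Markers of oligodendrocytes moved the same way: 13 of 13 tested were higher in hippocampus, 2 of them past the test (Mobp at 0.44 and Olig1 at 0.40), with a median of 0.40. Their mean log2 signal was 8.70 to 8.89 on the sham hippocampal and 8.18 to 8.70 on the sham cortical arrays. An array signal has no zero that would show a marker to be absent. Of astrocyte markers 7 of 10 were above 0, 1 of them past the test (Gja1 at 0.22), with a median of 0.037 and a mean signal of 8.78 to 8.80 on sham hippocampal and 8.64 to 8.76 on sham cortical arrays. The part of either cell type in the Cryab difference was not tested. After TFS, 3 of the 13 oligodendrocyte markers were above 0, with a mean of 8.71 to 8.86, and 9 of the 10 astrocyte markers, with a mean of 8.82 to 8.88; 0 of either list passed.

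Hspb1 and Dnajb1 were the members with lower means in hippocampus. Hspb1 averaged 5.69 ± 0.035 in sham hippocampus and 5.79 ± 0.12 in sham cortex (SD, n = 3), a difference of -0.11 (SE 0.067, adjusted p = 0.377, limma), with overlapping groups. It was -0.037 without cortical array 1, which lay above the rest. Markers of endothelium and mural cells, in which Hspb1 is known to be expressed, were lower in hippocampus in 11 of 11 genes, 1 of them past the test (Cldn5 at -0.19). Their mean was 7.07 to 7.20 on hippocampal and 7.30 to 7.59 on cortical sham arrays; their part was not tested. Dnajb1 averaged 7.91 ± 0.087 in sham hippocampus and 8.03 ± 0.12 in sham cortex (SD, n = 3), a difference of -0.12 (SE 0.066, adjusted p = 0.301, limma) that rests on one low hippocampal and one high cortical array.

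The HSP90 and HSP110 genes had higher means in hippocampus, with arrays that overlapped between the tissues and no call. Hsp90aa1 averaged 10.29 ± 0.20 in sham hippocampus and 10.12 ± 0.11 in sham cortex (SD, n = 3), a difference of 0.17 (SE 0.11, adjusted p = 0.382, limma), which was 0.284 without hippocampal array 1. Hsp90ab1 differed by 0.10 (SE 0.053, adjusted p = 0.296) and Hsph1 by 0.11 (SE 0.097, adjusted p = 0.509). The value of Hsp90ab1 was 0.051 without cortical array 1, and that of Hsph1 was 0.019 without hippocampal array 3 and 0.227 without hippocampal array 1. Hspa8 and Dnajc12 had the smallest differences, 0.030 (SE 0.045, adjusted p = 0.723) and 0.037 (SE 0.022, adjusted p = 0.340); leaving out 1 array or changing a setting gave 0.0033 to 0.080 and 0.022 to 0.055. The interval of Hsp90aa1 reached 1.35-fold. Of neuron markers 5 of 13 were higher in hippocampus, with a median of -0.0072, and 2 passed the test as higher and 1 as lower. Their part in the differences of these members was not tested.

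Some genes of the other chaperone lists passed the test between the tissues, at no more than the rate of genes in general. Of the 106 tested, 6 passed as higher and 5 as lower in hippocampus. Over all genes tested 5.99% passed as higher and 6.46% as lower, 12.4% in all. Of the 4466 tested genes above the background range 498 passed as higher and 467 as lower. Dnajb13, a J-domain protein of motile cilia, was the largest: 6.75 ± 0.054 in sham hippocampus and 5.89 ± 0.043 in sham cortex (SD, n = 3), a difference of 0.86 (SE 0.0655, adjusted p = 0.000294, limma). Markers of ependyma and choroid plexus were higher in 8 of 8 tested genes, with Ttr past the test at 3.30, and their mean was 7.13 to 7.89 on hippocampal and 6.31 to 6.36 on cortical sham arrays. The cilia factor Foxj1 differed by 0.081 (adjusted p = 0.638). Their part in the Dnajb13 difference was not tested. The Dnajb13 signal lies within the background range.

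Hsf2, a heat shock factor, was 6.86 in sham hippocampus and 6.56 in sham cortex (0.30, SE 0.054, adjusted p = 0.0100, limma), and the J-domain genes Dnaja4 and Dnajb14 were higher by 0.30 and 0.096. Ptges3, the p23 co-chaperone that holds HSP90 in its closed state, was higher by 0.18 and the BAG gene Bag4 by 0.14. On the lower side stood Dnajc21 at -0.48, Hspb6 at -0.24, Gadd45g at -0.19, Hspa12a at -0.13 and Stub1, the ubiquitin ligase of chaperone clients, at -0.086. All of these passed at an adjusted p of at most 0.0388. The signals of Hsf2, Dnajc21 and Gadd45g lie within the background range. Hspb6, a small heat shock protein of smooth muscle, was lower where the endothelium and mural markers given above were lower; their part was not tested.

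In 3 lists 0 genes passed between the tissues. Pfdn2 and Cct5 of prefoldin and chaperonin differed by -0.085 and 0.11, the mitochondrial Lonp1 and Trap1 by -0.10 and -0.076, and Pdia3 and Dnajb11 of the endoplasmic reticulum by 0.17 and 0.11 (adjusted p at least 0.123, limma). Of the 7 monoamine neuron genes 0 passed, with Th at -0.39 and Tph2 at -0.039, both within the background range.

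Some members shared a low place on the sham arrays numbered 1. Hspa8, Hsp90aa1, Hsp90ab1 and Hsph1 were each lowest on array 1 in both sham tissues: array 1 of sham hippocampus deviated from its group mean by -0.045, -0.23, -0.076 and -0.23 log2 units, and array 1 of sham cortex by -0.052, -0.12, -0.096 and -0.058. Hspb1 was highest on both arrays. Such a lowest place on both sham arrays numbered 1 was found in 4 of 9 members, 19.3% of all tested genes and 32.0% of those above the background range. It was chosen for description after the values were seen. The mean signal of 5 of the 11 marker lists was also lowest on both of these arrays, those of astrocytes, oligodendrocytes, their precursors, blood and cortex. Blood markers had 6.98 on array 1 and 7.35 and 7.66 on the other arrays of sham hippocampus, and 7.12 on array 1 and 7.52 and 7.55 on the other arrays of sham cortex. Oligodendrocyte markers had 8.70 on array 1 of sham hippocampus and 8.18 on array 1 of sham cortex. Their part in the low values of the members was not tested. Of these 4 genes Hsp90ab1 alone was also lowest on TFS array 1.

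**Figure D5:**
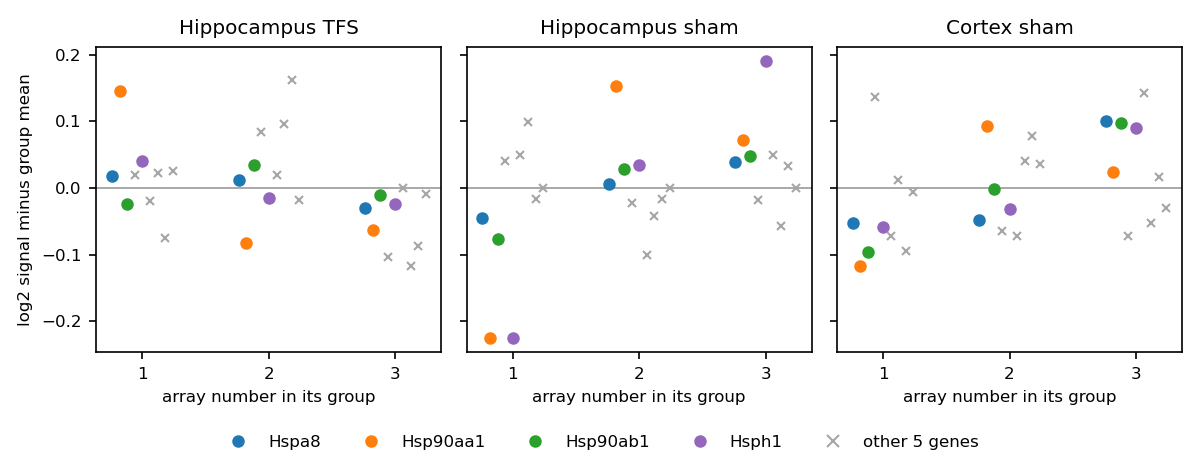
Log2 signal minus the mean of its group (vertical axis) for 9 chaperone genes on each array (horizontal axis, number within the group), in TFS hippocampus, sham hippocampus and sham cortex. The 4 coloured genes lie lowest on array 1 in both sham tissues, at -0.045 to -0.23 log2 units in hippocampus; on the TFS arrays Hsp90ab1 alone does.

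Rows of pseudogenes were looked at beside the members. RefSeq lists 76 pseudogenes named after Hspa8, Hsp90aa1, Hsp90ab1 or Dnaja1, 25 have a row of their own here, and 23 were tested. Of these 23 rows 20 were lowest on array 1 within sham hippocampus, as were 34.5% of all tested genes and 55.6% of those above the background range. After TFS 18 of the 23 had a higher mean, with a median of 0.036, where 61.3% of all genes and 81.8% of those above the background range did. In hippocampus 23 had a higher mean than in cortex, with a median of 0.13, where 46.6% of all genes and 53.0% of those above the background range did. One of them passed the test between the tissues, Hsp90ab1-ps2 at 0.26 (adjusted p = 0.0233, limma), and 0 passed for TFS. The signal of Hsp90ab1-ps2 lies within the background range. The probes of these rows are not given here, so how far they read the parent genes was not tested.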

How the data were processed

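The deposited table holds log2 signals, 1 per transcript cluster or control probe set, which the authors made from Clariom D arrays. RMA and limma are the tools named, with no version, per the submitters' processing notes. The genome build is not given in the sources used here. Of 70580 rows 1738 control rows were left out; 23446 rows had 1 gene symbol, 505 several and 44891 none, giving 22093 genes by the brightest row. A gene was tested where its mean reached 4.99, the median over all rows.

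All 9 arrays entered one limma model of group means (version 3.58.1 in R 4.3.3; moderated by eBayes, with 1.46 prior beside 6 residual degrees of freedom), two-sided, with Benjamini-Hochberg adjustment over all genes tested and a threshold of 0.05. The fit was tested on simulated data. Precision is limited by the number of arrays. The members, lists and rules for naming genes were chosen with earlier results of these data known. Named are all members and, for each other chaperone list and comparison, up to 3 genes past the test in each direction, or the 2 of smallest p where none passed. The list of genes most like a member was to be drawn for members past the test, of which there were none.

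Sham hippocampal and cortical arrays of one number deviated together (correlations across genes of 0.416, 0.202 and 0.252), and TFS and sham hippocampal arrays did not (-0.111, -0.287 and -0.025); the number as a block was an alternative. Other alternatives were filters, summaries, scalings, variance models, the 6 arrays of a comparison, a threshold of 0.1 and leaving out arrays.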

Additional observations from a re-analysis of the deposited data

How the results depend on the processing

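Signs and calls of single members were stable over the 22 alternatives, with these exceptions: 194 member values kept both in each comparison. For TFS, Cryab was -0.011 without TFS array 2, the lowest of its leave-one-out values (highest 0.114), and Hsp90aa1 was -0.023 without hippocampal sham array 1 (highest leave-one-out value 0.167) and also -0.023 with both sham arrays numbered 1 left out, an alternative chosen after seeing the data. No alternative called a member for TFS. The count over all genes, 0 as reported, became 1 with array weights (Tspy26) and 1 with both sham arrays numbered 1 left out (Sncg), genes named after their values were seen; it was 0 in each of the 9 refits that leave out 1 array. Between the tissues, 1 member (Bag3) passed with the replicate block over 9 arrays, at a threshold of 0.1, and without TFS array 3, and leaving out arrays gave 0 to 1. The genes past the test numbered 1931 as reported, 1211 in the 6 sham arrays alone and 982 with the replicate block over these 6. They numbered 1285 (without hippocampal sham array 2) to 2183 when 1 array was left out. Why the count varied was not tested. The block changed no other member's call. Hspb1 falls under the filter at the 75th percentile and has no value there. Signals of Hspb1, Bag3, Cryab and Dnajc12 lie within the background range, a limit on how far they measure transcript.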

Other observations

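Further values of the marker lists come from the same limma fit. For TFS against sham hippocampus 0 genes passed in any of the 11 marker lists. Differences above 0 were seen in 8 of 11 markers of endothelium and mural cells and 4 of 5 of meninges. For ependyma and choroid plexus 1 of 8 was above 0. Microglia markers averaged 7.18 to 7.23 on the TFS arrays and 7.15 to 7.20 on the hippocampal sham arrays, with 7 of 9 differences above 0. Blood markers averaged 7.10 to 7.16 on the TFS arrays and 6.98 to 7.66 on the hippocampal sham arrays, with 0 of 6 differences above 0. Between sham hippocampus and cortex 0 of 5 markers of meninges had a difference above 0 and 2 passed the test as lower, with a mean of 6.51 to 6.77 in hippocampus and 7.17 to 7.80 in cortex. Of the oligodendrocyte precursor markers 5 of 5 were above 0 and 1 passed the test, and of the microglia and blood markers 0 passed.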
